A study of Mus musculus with 35 samples.

Results

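A set of 10 genes of the differentiating epidermis and its barrier was followed through sorted cells of mouse hind paw skin: Krtdap, Sbsn, Dmkn, Lor, Cst6, Capns2, Defb6, Them5, Fam25c and Aqp3. They were picked by name, for their place in differentiated epidermis or because earlier results of these data had them lower after paclitaxel in the keratinocyte sort, and are 10 of the 22609 gene symbols counted. All 10 had counts in at least 1 of the 35 libraries. Because the choice used the keratinocyte comparison of paclitaxel with vehicle, the values of the 10 genes there are a description, without a test.

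The libraries were made from polyadenylated RNA of C57 mice aged 8 to 16 weeks. Male mice received paclitaxel (PTX), a cancer drug that keeps microtubules from disassembling, as 2 injections of 2 mg/kg into the abdomen 1 day apart. Their paw skin was collected 6 days after the last of these. Vehicle-treated females and vehicle-treated males were the controls, and PTX was given to males only. Keratinocytes were the tdTomato-positive cells of K5-cre-ER/tdTom mice, fibroblasts those of Col1a2-cre-ER/tdTom mice, and immune cells the CD45-positive cells of wild-type (WT) mice. The tdTomato sorts therefore hold cells in which, or in whose ancestors, the inducible Cre was driven by Col1a2 or keratin 5 regulatory sequence. In the keratinocyte sort there were 4 libraries of PTX males, 4 of vehicle females and 3 of vehicle males. The immune and fibroblast sorts had 4 of each. Whether different libraries are different animals is not in the labels, so a p-value here reflects the spread among libraries, part of which may be technical.

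The epidermis is renewed from a basal layer that makes keratins 5 and 14. Cells that leave it switch to keratins 1 and 10, secrete small proteins, and finally crosslink a cornified envelope under the plasma membrane while lipids are laid down between the cells. Paw skin has a thick cornified layer over its glabrous surface, together with hair follicles on its upper side.

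Of the secreted proteins, Krtdap encodes keratinocyte differentiation-associated protein, Sbsn suprabasin and Dmkn dermokine, and these 3 genes are neighbours on mouse chromosome 7, in the order Sbsn, Dmkn, Krtdap with no other gene listed between them in the RefSeq table. Lor encodes loricrin, a main protein of the cornified envelope. Cst6 encodes cystatin M/E, an inhibitor of cathepsins and legumain in cornifying epithelium, and Capns2 a small regulatory subunit of calpain proteases. Defb6 encodes a beta-defensin, a small antimicrobial peptide. Them5 encodes an acyl-CoA thioesterase, Aqp3 a water and glycerol channel of the lower epidermal layers, and Fam25c a member of a small family whose function is not well known.

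The promoters of the 3 neighbours and of Fam25c are shown because all 4 hold a match to the AP-1 motif, the binding sequence of Jun and Fos proteins. Each runs from 150 bases before to 10 after the first transcribed base and is credited to RefSeq on GRCm38.p6, and capitals mark the AP-1 matches. The windows are chr7:30787755-30787914 on the plus strand for Krtdap, chr7:30751321-30751480 on the plus strand for Sbsn, chr7:30763606-30763765 on the plus strand for the first listed start of Dmkn, and chr14:34355384-34355543 on the minus strand for Fam25c.
Krtdap: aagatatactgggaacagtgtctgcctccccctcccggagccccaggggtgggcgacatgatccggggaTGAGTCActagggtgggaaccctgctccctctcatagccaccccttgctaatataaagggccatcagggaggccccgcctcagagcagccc
Sbsn: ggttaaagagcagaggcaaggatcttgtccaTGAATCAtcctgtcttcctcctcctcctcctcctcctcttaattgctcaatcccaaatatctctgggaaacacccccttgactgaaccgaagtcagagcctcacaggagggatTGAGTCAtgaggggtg
Dmkn: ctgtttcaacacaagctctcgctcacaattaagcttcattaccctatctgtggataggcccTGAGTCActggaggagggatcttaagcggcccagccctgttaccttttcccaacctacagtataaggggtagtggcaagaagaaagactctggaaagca
Fam25c: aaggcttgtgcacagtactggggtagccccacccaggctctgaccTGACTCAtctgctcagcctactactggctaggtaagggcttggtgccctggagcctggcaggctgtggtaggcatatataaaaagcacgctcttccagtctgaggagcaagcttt

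Of the 10 genes, 9 matched an entry of the RefSeq promoter table, which spans 250 bases before to 50 after the start, and 5 of these 9 held the AP-1 letters TGANTCA (the same on both strands): Krtdap, Sbsn, Dmkn, Lor and Fam25c. Of all 32851 promoters in the table, 7.81% held them. The match in Krtdap began 81 bases before the start, that in the first Dmkn promoter 89 bases, that in Fam25c 105 bases and that in Lor 48 bases. Sbsn had 2 matches, which began 119 and 6 bases before its start. The TATA box letters TATAAA, searched on both strands, stood 27 to 30 bases before the start of Krtdap, Lor, Fam25c and Aqp3. Anywhere in the window, they were in these 4 of the 9 genes and in 13.6% of all promoters. The Grainyhead-like letters AACNGGTT were in none of the 9 and in 2.09% of all promoters, and the CCAAT box letters CCAAT, searched on both strands, were in 1 of the 9 (Krtdap) and in 37.4% of all promoters. A match is a run of letters in a window, not a measured site.

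Reads counted in genes numbered 6518070 to 12055718 per keratinocyte library, apart from replicate 2 of the vehicle females with 988712, and 13359088 to 20809036 per immune or fibroblast library. The sorts carried the markers of their cells, but the PTX keratinocyte libraries carried markers of other cells too. All 12 fibroblast markers and all 12 pan-immune markers had counts in each of these 4 libraries. The 12 fibroblast markers summed to 11938 to 16798 CPM (gene counts relative to library size, scaled with TMM over all libraries) in PTX males, against 227 to 1211 CPM in vehicle females and 176 to 632 CPM in vehicle males. The 12 pan-immune markers summed to 1539 to 3433 CPM in PTX males, against 41.8 to 228 CPM in vehicle females and 28.3 to 94.4 CPM in vehicle males. Endothelial markers summed to 1791 to 2458 CPM in PTX males, against 3.66 to 29.7 CPM in vehicle females and 0.747 to 467 CPM in vehicle males. The 12 basal keratinocyte markers summed to 3128 to 10894 CPM in PTX males, against 12455 to 25558 CPM in vehicle females and 20566 to 25898 CPM in vehicle males. The immune sort of vehicle males was mixed too, with fibroblast markers at 4621.5 to 10641 CPM. Immune libraries had 259 to 1530 CPM of them in PTX males and 102 to 435 CPM in vehicle females. In bulk libraries, fewer cells of a type and less RNA per cell cannot be told apart. The part of these other cells in the levels below was not tested, and the ratio to Krt14 within each library is given for that reason. That ratio does not remove reads from cells with little Krt14. In the fibroblast sort Krtdap was at 12.9 to 98.6 CPM and Sbsn at 11.2 to 50.4 CPM, with Krt14 at 2.58 CPM or less.

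**Figure D1:**
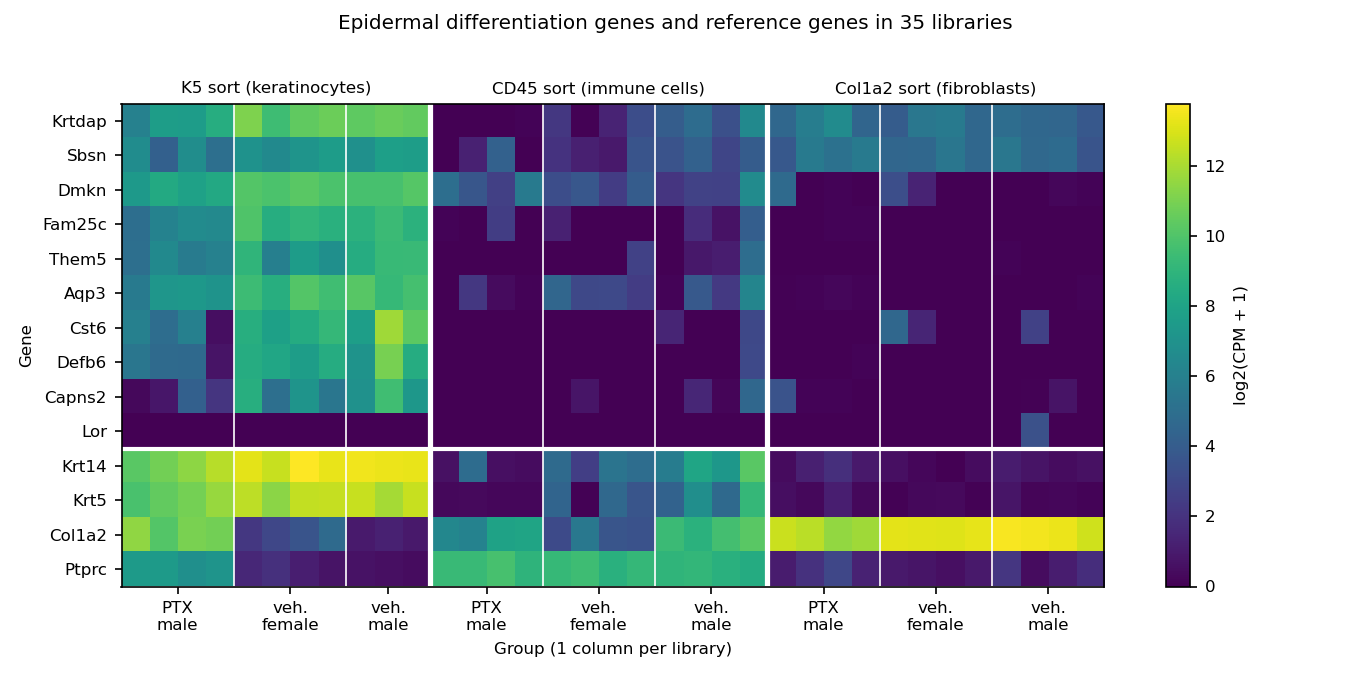
Level of the 10 genes and of 4 reference genes as log2(CPM + 1), with 1 column per library and the 9 groups side by side. The 9 detected genes are high in the keratinocyte sort and lower in its PTX columns, Krtdap and Sbsn keep a level in every fibroblast column, and Col1a2 and Ptprc are visible in the PTX columns of the keratinocyte sort.

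Of the 10 genes, 9 were detected in the keratinocyte sort, all 9 in each of its 11 libraries, and all 9 were lower in PTX males than in vehicle males with no overlap between the groups. Among all 10939 genes tested, 4.29% were lower without overlap. Nothing is read from that count, since the choice of genes used this comparison.

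Krtdap was at 66.9, 201, 195 and 387 CPM in PTX males, at 2280, 734, 1366 and 1644 CPM in vehicle females and at 1335, 1597 and 1451 CPM in vehicle males. The highest PTX library lay below the lowest vehicle library of either sex. The fitted log2 difference between PTX and vehicle males was -2.71 with an SE of 0.44.

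Dmkn, its neighbour, was at 171, 336, 239 and 320 CPM in PTX males, at 1115, 949, 1252 and 946 CPM in vehicle females and at 891.5, 876 and 1150 CPM in vehicle males. All 4 PTX libraries lay below all 7 vehicle libraries here too. Its log2 difference from vehicle males was -1.79 with an SE of 0.33.

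Sbsn, the outer gene of the 3 on the other side of Dmkn, was at a lower level, with 104, 17.7, 108 and 32.5 CPM in PTX males, 132, 91.2, 142 and 199 CPM in vehicle females and 121, 223 and 203 CPM in vehicle males. PTX males lay below vehicle males but overlapped vehicle females. The log2 difference of -1.38 from vehicle males had an SE of 0.93.

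The protease inhibitor gene Cst6 was at 64.5, 29.2, 63.8 and 0.449 CPM in PTX males, at 403, 232, 363 and 573 CPM in vehicle females and at 208, 3651 and 1264 CPM in vehicle males. Defb6 was at 42.2, 26.2, 25.7 and 0.674 CPM in PTX males, at 378, 291, 205 and 370 CPM in vehicle females and at 135, 1981 and 369.95 CPM in vehicle males. For both genes PTX replicate 4 was nearly empty, with 4 and 6 reads, and vehicle male replicate 2 stood above the others. The log2 differences from vehicle males were -5.31 for Cst6, with an SE of 1.085, and -5.00 for Defb6, with an SE of 0.985. Without vehicle male replicate 2 they were -4.14 and -3.35.

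Capns2 was at 0.220, 0.79, 17.9 and 3.37 CPM in PTX males, at 408, 31.9, 143 and 42.2 CPM in vehicle females and at 124, 745 and 159 CPM in vehicle males. In PTX replicates 1 and 2 this was 3 and 8 reads, so the low end is set by counting. Its log2 difference of -5.85, with an SE of 1.41, was the lowest of the 9 and moved to -7.81 without PTX replicate 3 and to -4.64 without vehicle male replicate 2.

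Them5 was at 32.1, 93.5, 53.2 and 65.8 CPM in PTX males, at 526, 62.1, 198 and 114 CPM in vehicle females and at 369, 622 and 658 CPM in vehicle males. PTX males lay below vehicle males and overlapped vehicle females, whose replicate 2 is the shallow library. Fam25c was at 30.1, 68.3, 100.2 and 88.9 CPM in PTX males, at 1007, 392.2, 551 and 433 CPM in vehicle females and at 463, 665 and 471 CPM in vehicle males. Aqp3 was at 48.7, 149, 165 and 136 CPM in PTX males, at 702, 397, 1092 and 765 CPM in vehicle females and at 1188, 611 and 833 CPM in vehicle males. For Fam25c and Aqp3 the PTX libraries lay below every vehicle library of both sexes. The log2 differences from vehicle males were -3.08 for Them5 (SE 0.69), -2.81 for Fam25c (SE 0.50) and -2.76 for Aqp3 (SE 0.47).

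**Figure D2:**
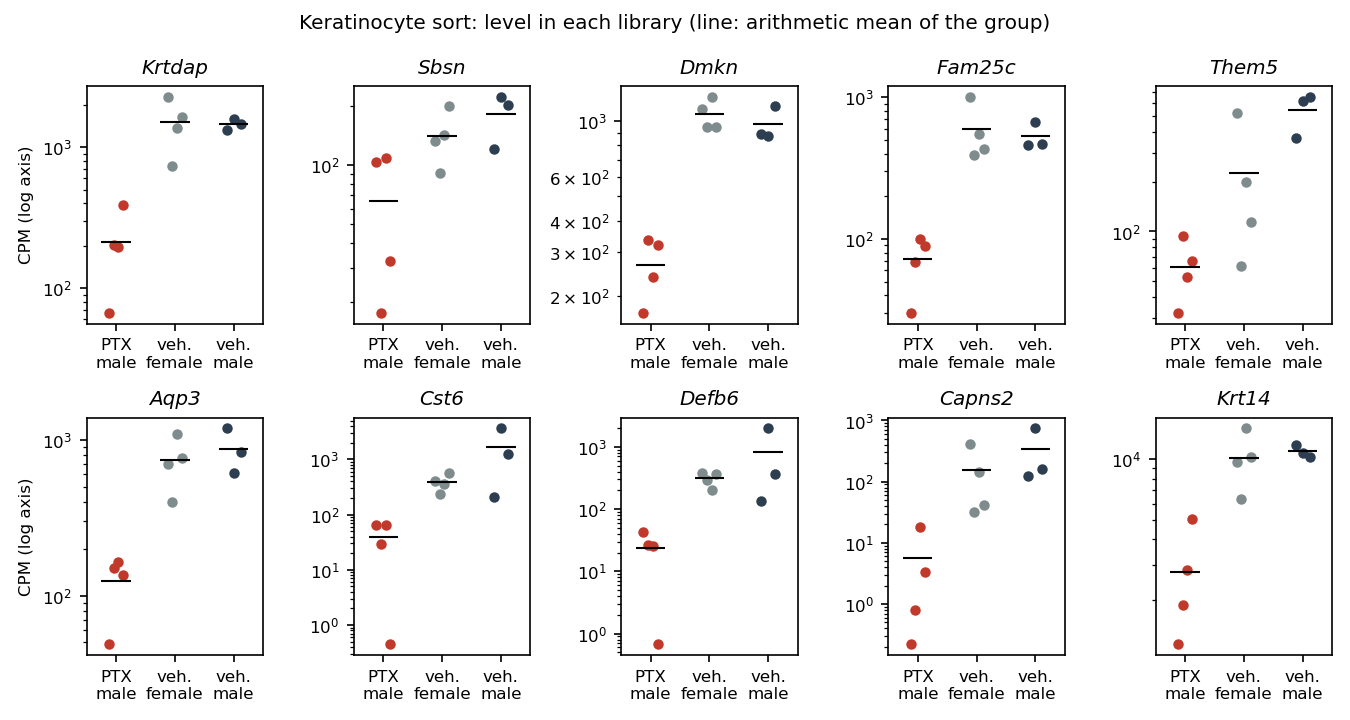
CPM on a log axis in each of the 11 keratinocyte libraries, for the 9 detected genes and Krt14, with PTX males in red, vehicle females in grey, vehicle males in dark blue and a line at each group's mean. Every PTX point lies below every vehicle male point for all 10 genes, while Sbsn and Them5 overlap the vehicle females.

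Loricrin RNA was not seen where it would be looked for. Lor had 0 counts in all 11 keratinocyte libraries, where 95292284 reads were counted in genes, which allows a level of up to 0.0315 CPM (3 counts of the total, counting error only). Its 133 counts all came from 1 library, fibroblast vehicle male replicate 2, at 9.57 CPM. Lor was not alone: 36 of the 47 cornified envelope genes found in the tables, among them Flg2, Hrnr and the listed Sprr2 and Lce1 genes, had 0 counts in all 11 keratinocyte libraries. In these libraries 48.3 to 60.9% of reads had no unique place and were counted in no gene, and the part of that in the zeros was not tested. Because Lor is at 0 in every group of the keratinocyte sort, no change can be given for it.

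Krt14, the basal keratin that served as a yardstick, was also lower after PTX. It was at 1209, 1886, 2838 and 5049.5 CPM in PTX males, at 9714, 6376, 14238 and 10213 CPM in vehicle females and at 11790, 10728 and 10299 CPM in vehicle males, with a log2 difference from vehicle males of -1.93 (SE 0.32). The 9 detected genes had log2 differences of -1.38 to -5.85, with a median of -2.81, against a median of 0.0705 over all genes tested. Of the 9, 7 had a difference below that of Krt14, and Sbsn and Dmkn one above it. Over all genes tested, 12.9% had a difference below that of Krt14. Nothing is read from these medians and counts, since the choice of genes used this comparison.

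Counting each gene per 1000 Krt14 reads of the same library removes the scaling between libraries. Krtdap gave 55.3, 107, 68.6 and 76.7 reads per 1000 Krt14 reads in PTX males, 235, 115, 95.95 and 161 in vehicle females and 113, 149 and 141 in vehicle males. All 4 PTX libraries lay below the 3 of vehicle males, with a log2 ratio lower by 0.84 (SE 0.23), which is 1.79-fold, but 1 of them lay above the lowest vehicle female. Fam25c gave 24.9, 36.2, 35.3 and 17.6 in PTX males, 104, 61.5, 38.7 and 42.4 in vehicle females and 39.3, 62.0 and 45.7 in vehicle males. It was the 1 gene of the 9 whose PTX libraries lay below all 7 vehicle libraries on this scale, with a difference of -0.81 (SE 0.31) from vehicle males and -1.06 (SE 0.41) from vehicle females. Of 10938 genes, 0.329% lay below the vehicle females without overlap, wherever they lay against vehicle males. Nothing is read from that share, since the choice of genes used the PTX keratinocyte libraries.

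Capns2 had the lowest ratio difference, -4.81 (SE 1.34) from vehicle males, with 0.182, 0.419, 6.30 and 0.668 reads per 1000 Krt14 reads in PTX males, 42.0, 4.997, 10.02 and 4.13 in vehicle females and 10.5, 69.5 and 15.5 in vehicle males. The difference was -5.81 without PTX replicate 3 and -4.00 without vehicle male replicate 2. PTX males were apart from vehicle males and overlapped vehicle females. Of the 9 genes, 3 (Krtdap, Capns2 and Fam25c) were lower than in vehicle males without overlap on this scale, where 0.293% of 10938 genes were. The choice of genes used this comparison, so nothing is read from that share.

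Dmkn kept its ratio to Krt14 within the spread: 142, 178, 84.2 and 63.4 reads per 1000 Krt14 reads in PTX males, 115, 149, 87.9 and 92.6 in vehicle females and 75.6, 81.7 and 112 in vehicle males. The difference was 0.29 (SE 0.38) from vehicle males and -0.01 (SE 0.38) from vehicle females. Sbsn was at 0.39 (SE 0.93) from vehicle males, with PTX libraries from 6.43 to 85.8 reads per 1000 Krt14 reads that spanned the whole vehicle range of 9.985 to 20.75. For Sbsn the sign depended on PTX replicate 1, without which the difference was -0.29. The 3 chromosome neighbours therefore had ratios of -0.84, 0.39 and 0.29 (Krtdap, Sbsn, Dmkn) against vehicle males. The part of other cells in these ratios was not tested.

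Aqp3 had a ratio difference of -0.71 (SE 0.41) from vehicle males and Them5 one of -1.03 (SE 0.52), and both overlapped. Against vehicle females Them5 was at 0.49 (SE 0.70), the opposite sign. Cst6 at -3.78 (SE 2.40) and Defb6 at -3.08 (SE 2.11) had wide errors. PTX replicate 4 had 0.0890 and 0.134 reads of them per 1000 Krt14 reads, and the vehicle males were spread too, with SDs of 2.17 and 2.01 on the log2 scale (n = 3). Without that PTX library the ratio differences of Cst6 and Defb6 were -1.77 (SE 1.36) and -1.37 (SE 1.30). Without vehicle male replicate 2 they were -2.83 and -2.01, and without vehicle male replicate 1 they were -4.96 and -4.02.

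**Figure D3:**
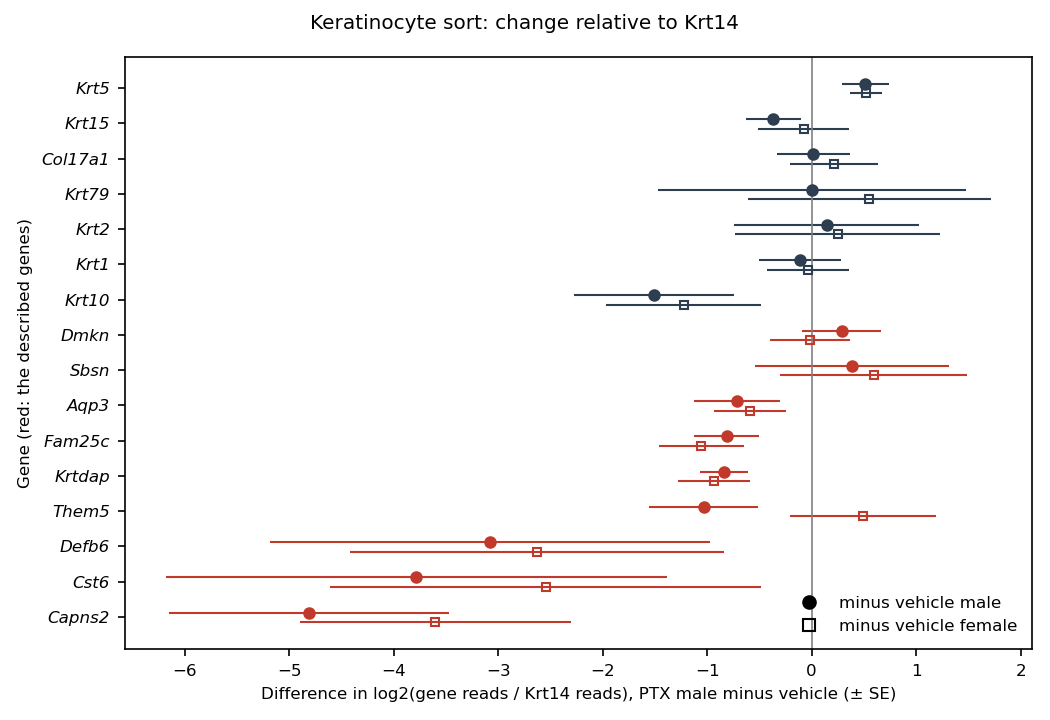
Difference in log2(gene reads / Krt14 reads) between PTX males and vehicle males (circles) or vehicle females (squares) in the keratinocyte sort, with SE bars, for the 9 genes in red and 7 keratin or basal genes in dark blue. Dmkn and Sbsn lie at 0.29 and 0.39, Krtdap, Fam25c, Aqp3 and Them5 between -0.71 and -1.03 against vehicle males, and Capns2, Cst6 and Defb6 below -3.

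A change of yardstick moves the ratios of all 9 genes by 1 shared amount. The median ratio difference of the 9 genes was -0.84 against Krt14 and -1.35 against Krt5. Measured against Krt10, a suprabasal keratin and a yardstick chosen after seeing the data, it was 0.67. Krt10 was lower than Krt14 in PTX relative to vehicle males by 1.51 on the log2 scale (SE 0.77), so any gene with a ratio difference to Krt14 between -1.51 and 0 has the opposite sign against Krt10, while the order of the 9 genes is the same. On that scale Dmkn was 1.80 higher (SE 0.49) in PTX males than in vehicle males and Krtdap 0.67 higher (SE 0.73). Krt5 was 2.02 higher (SE 0.78) there, while Cst6, Capns2 and Defb6 remained at -2.27, -3.30 and -1.57. Krt10 itself was at 73.9, 143, 123 and 48.5 CPM in PTX males and at 744, 1439 and 1451 CPM in vehicle males.

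Other epidermal genes in the same libraries were tested across all genes with edgeR's quasi-likelihood F-test and Benjamini-Hochberg adjustment. It called 1.15% of 10939 genes higher and 0.302% lower in PTX males. Of 9 suprabasal and stress keratins tested, 2 fell and none rose: Krt10 by 3.55 on the log2 scale (SE 0.42, adjusted p = 0.000118) and Krt1, the partner of Krt10, by 2.04 (SE 0.43, adjusted p = 0.0175). Of 12 basal keratinocyte markers 4 passed as lower, Krt14 among them. Krt15, a keratin of basal and follicle stem cells, fell by 2.45 (adjusted p = 0.000664), Krt5, the partner of Krt14, by 1.49 (adjusted p = 0.02), and Col17a1, a collagen of the hemidesmosome, by 1.92 (adjusted p = 0.0248). These 4 basal genes and both keratins also passed without the shallow vehicle female library.

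None of 8 cornified envelope genes, 19 barrier lipid genes or 10 tight junction genes passed in either direction. Their median log2 differences were -2.17, -0.658 and -0.142. Passing or not, 6, 13 and 5 of them were lower and 2, 6 and 5 higher. Tgm3, a transglutaminase that crosslinks the envelope, was at 7.53 ± 3.96 CPM (SD, n = 4) in PTX males and at 165 ± 143 CPM (SD, n = 3) in vehicle males, with an adjusted p of 0.208 in edgeR. Cldn1, the main claudin of epidermal tight junctions, was at 118 ± 78.4 CPM in PTX males and at 559 ± 315 CPM in vehicle males, with an adjusted p of 0.0649 in edgeR. Elovl6, a fatty acid elongase, was at 501 ± 153 CPM in PTX males and at 1011 ± 865 CPM in vehicle males. Relative to Krt14, the log2 differences of Tgm3, Cldn1 and Elovl6 were -1.97, -0.08 and 1.51. Those of Ppl, F11r and Lass4, also among the 2 genes of highest mean level in these lists, were 3.72, 4.62 and 1.27 (SEs 1.79 to 2.88).

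A few genes of these lists rose. Of 17 desquamation proteases and inhibitors 1 rose, the cystatin gene Cst3, a relative of Cst6 made by many cell types, by a log2 difference of 2.27 (SE 0.40, adjusted p = 0.00387 in edgeR). Of 20 differentiation transcription factors 2 rose, among them Junb, an AP-1 subunit, by 2.34 (adjusted p = 0.0175 in edgeR). Without the shallow vehicle female library 1 of 20 rose, and it was Junb. Of the pan-immune markers 4 of 12 rose, as did 6 of 12 fibroblast and 5 of 8 endothelial markers, with median log2 differences of 6.06, 10.5 and 11.4. The part of other cells in these rises was not tested.

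Between the sexes, which the choice of genes did not use although it shares the vehicle males, no difference in the 9 genes passed. The comparison of vehicle females with vehicle males called 0.00914% of 10939 genes by edgeR. None of the 9 passed (lowest adjusted p 0.61), 1 was under 0.05 before adjustment (as were 8.02% of all genes), and DESeq2 and limma with voom weights called none as well. Cst6 had that unadjusted p of 0.047, with 393 ± 141 CPM in females (SD, n = 4) and 1708 ± 1764 CPM in males (SD, n = 3). Them5 was at 225 ± 208 CPM in females and at 550 ± 157 CPM in males, a log2 difference of -1.32 (SE 0.67). Krtdap, Dmkn, Fam25c, Aqp3 and Sbsn differed by -0.34 to 0.16 on the log2 scale, with SEs of 0.33 to 0.93. The misses do not show that the sexes were alike.

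The 9 genes did not vary as a block. After each library's deviation from its group mean was taken on the log2(CPM + 1) scale, the 36 pairs of genes had a median Pearson r of 0.257 over the 11 keratinocyte libraries, from -0.64 to 0.959, and 23 were positive. Values within a library share its depth and its mix of cells. Cst6 and Defb6 formed the closest pair with 0.959, and each went with Krt79, a keratin of the hair follicle infundibulum in mouse, at 0.937 and 0.91. Krt79 was at 894, 444, 550 and 94.7 CPM in PTX males, at 637, 981, 1145 and 1725 CPM in vehicle females and at 532, 4753 and 2059 CPM in vehicle males. PTX replicate 4 was thus lowest and vehicle male replicate 2 highest for all 3 genes, while Krtdap was at 387 and 1597 CPM there, the highest of its group in both.

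**Figure D4:**
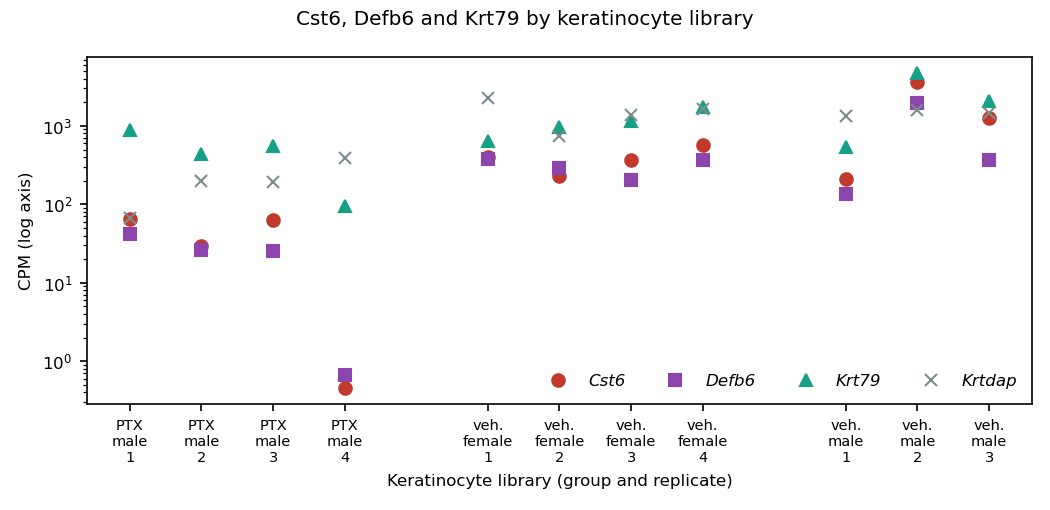
CPM on a log axis of Cst6, Defb6, Krt79 and Krtdap in each keratinocyte library, with replicate numbers under the axis. Cst6 and Defb6 drop to 0.449 and 0.674 CPM in PTX replicate 4, where Krt79 is at 94.7 and Krtdap at 387 CPM, and all but Krtdap peak clearly in vehicle male replicate 2.

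Other pairs followed Krt14 or Fam25c. Krtdap had an r of 0.836 with Fam25c and of 0.824 with Krt14, Capns2 one of 0.865 with Fam25c, and Aqp3 one of 0.734 with Krt14. Krtdap and its neighbour Dmkn had an r of 0.702. Taking the mean deviation of the 9 genes, the closest of 10350 other genes were Ndufs7 at 0.899, Arpp19 at 0.88, Ppp4r2 at 0.877, Pank3 at 0.865 and Xrn2 at 0.858. Krt10 was at 0.738, with 77 genes closer, Krt79 at 0.496 and Krt14 at 0.0886.

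In the fibroblast sort 2 of the 10 genes were present throughout and the others were nearly absent. Krtdap had 162 to 1032 counts and Sbsn 141 to 629 counts in all 12 libraries. Krtdap was at 23.5, 57.0, 98.6 and 21.2 CPM in PTX males, at 15.3, 44.1, 48.4 and 23.1 CPM in vehicle females and at 29.2, 23.7, 22.2 and 12.9 CPM in vehicle males. Sbsn was at 12.9, 50.4, 33.8 and 49.1 CPM in PTX males, at 22.8, 23.1, 41.6 and 23.0 CPM in vehicle females and at 43.2, 23.9, 27.6 and 11.2 CPM in vehicle males. The groups overlapped for both genes.

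Krt14 had only 105 counts over the same 12 libraries, and both genes were above it in each. The ratio to Krt14 in a fibroblast library thus rests on 3 to 27 Krt14 reads, and vehicle female replicate 3 had none. Krtdap had 23.4 to 73.6 reads per Krt14 read in the libraries of PTX males, 31.5 to 241 in the other 3 of vehicle females and 23.1 to 62.8 in those of vehicle males. In the keratinocyte libraries it had 0.0553 to 0.107 in PTX males, 0.096 to 0.235 in vehicle females and 0.113 to 0.149 in vehicle males. Sbsn had 13.1 to 54.1 reads per Krt14 read in PTX males, 47.0 to 126 in vehicle females and 20.1 to 78.2 in vehicle males of the fibroblast sort. For both genes the lowest fibroblast library lay above the highest keratinocyte library. Krt10 too was counted in 11 of the 12 fibroblast libraries, at 3.10 ± 5.80 CPM in PTX males and at 22.6 ± 16.3 CPM in vehicle males (SD, n = 4 each). Some of these hold few reads: Krt10 had 185, 1, 5 and 0 counts in PTX males and 1 in vehicle female replicate 4. Dmkn, Lor, Cst6 and Capns2 had 3 counts or fewer in at least 9 of the 12 libraries, with single libraries of up to 406, 133, 384 and 168 counts. Defb6, Them5, Fam25c and Aqp3 never exceeded 2 counts.

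**Figure D5:**
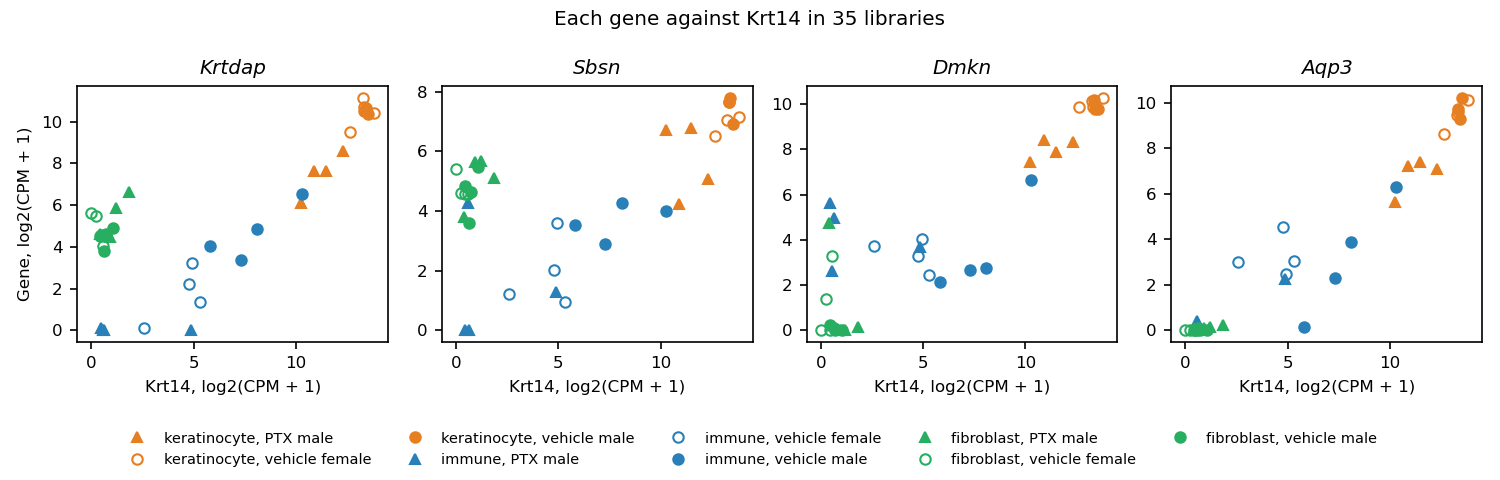
Level of Krtdap, Sbsn, Dmkn and Aqp3 against Krt14, each as log2(CPM + 1), in all 35 libraries; triangles are PTX males, open circles vehicle females and filled circles vehicle males. In the fibroblast libraries (green) Krtdap and Sbsn sit between 11.2 and 98.6 CPM where Krt14 is near 0, whereas Aqp3 is near 0 there, and in 3 of the 4 PTX immune libraries (blue triangles) Dmkn is present where Krt14 is near 0.

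Krtdap and Sbsn were the 2 genes of the 10 that could be tested in fibroblasts. PTX and vehicle males differed by a log2 fold change of 1.18 (SE 1.20, adjusted p = 0.965 in edgeR) for Krtdap and 0.44 (SE 1.22, adjusted p = 0.995) for Sbsn. Neither passed, where 0.0184% of 10857 genes did. Neither was under 0.05 before adjustment, where 8.07% of all genes were, and DESeq2 and limma with voom weights called neither.

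In the immune sort, 6 of the 10 genes had enough counts to test, and Krtdap fell after PTX. Krtdap and Them5 had enough counts through the vehicle libraries alone, so for them only a fall could be called. Krtdap had 0, 0, 0 and 1 counts in PTX males, 69, 1, 26 and 151 counts in vehicle females and 311, 515, 174 and 1883 counts in vehicle males. PTX males lay below vehicle males without overlap, as 10.8% of all genes tested did, and overlapped vehicle females. The log2 fold change was -10.37 (SE 2.10, adjusted p = 0.0157 in edgeR), and the counts gave a vehicle to PTX ratio of 1.83e+03 with a 95% counting interval of 328 to 7.23e+04. Vehicle male replicate 4 held 1883 of the 2883 vehicle counts, and without it the ratio was 862 (interval 154 to 3.41e+04) and the log2 fold change -9.34. Without PTX replicate 4, which had the 1 count, the other PTX libraries are at 0 and Krtdap was at least 155-fold lower in PTX males by a floor of 3 counts per library. Krtdap was 1 of 6 genes called, where 4.56% of 12131 genes were called lower, and 3 of the 6 were under 0.05 before adjustment, as were 20.1% of all genes. Krtdap passed in all 8 fits without 1 library (adjusted p 0.0237 to 0.0485), had an adjusted p of 0.248 with limma and voom weights and of 1.35e-09 with DESeq2, which called 2 of 5.

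Against vehicle males, markers of other cells moved the same way in these libraries. The 12 basal keratinocyte markers summed to 29.3 to 119 CPM in PTX males and to 93.5 to 2539 CPM in vehicle males. In vehicle females they summed to 27.2 to 93.4 CPM, a range that overlaps that of PTX males. Of the 12, 3 (Itga3, Trp63 and Lama3) were at 0 in every PTX library, and Itga3 and Lama3 also in every vehicle female library. Of 10 basal markers tested 4 fell, Krt14 among them by 6.00 on the log2 scale (adjusted p = 0.0396 in edgeR, not passed in 6 of 8 fits without 1 library, which gave -9.84 to -4.62), and 1 of 10, Krt5, passed without vehicle male replicate 4. The 12 fibroblast markers summed to 259 to 1530 CPM in PTX males and to 4621.5 to 10641 CPM in vehicle males. Against vehicle males 8 of the 12 fell, or 5 of the 12 without vehicle male replicate 4. In vehicle females the 12 summed to 102 to 435 CPM. The PTX libraries also had fewer genes with over 10 counts: 7297, 8458, 8700 and 5956, against 11000, 12813, 12603 and 12115 in vehicle males. The part of carried-over cells, or of this lower number of genes, in the fall of Krtdap and in the bounds below was not tested.

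Among vehicle males of the immune sort, replicate 4 held most of the reads of each other gene detected there, except Sbsn (312 of 985). Them5 had 0 counts in each PTX library and 0, 16, 22 and 613 in vehicle males, at least 32.5-fold lower in PTX males by a floor of 3 counts per library, with an adjusted p of 0.146 in edgeR. By the same floor Capns2 was at least 26.3-fold, Cst6 at least 8.98-fold and Defb6 at least 7.44-fold lower in PTX males, all untested and with 491 of 527, 146 of 180 and 150 of 150 vehicle male counts in that 1 library. Without it the bounds were 2.77-fold for Them5, 2.65-fold for Capns2 and 2.31-fold for Cst6. All of these bounds are against vehicle males only. In vehicle females Cst6 and Defb6 had 0 counts too, while Capns2 had 11 and Them5 95, each in 1 library. Aqp3 had 0, 51, 4 and 1 counts in PTX males and 2, 252, 75 and 1582 in vehicle males (log2 fold change -4.66, adjusted p = 0.194 in edgeR). Its fold change was -2.70 without vehicle male replicate 4 and -7.40 without PTX replicate 2. Fam25c had an adjusted p of 0.83 and Sbsn one of 0.84, with log2 fold changes of -2.08 and -1.44 that were -7.18 and -4.84 without PTX replicate 3. Without vehicle male replicate 4 that of Fam25c was 0.10.

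Dmkn, unlike Krtdap, was not called lower in the immune sort. It had 385, 165, 64 and 513 counts in PTX males, 161, 194, 72 and 275 in vehicle females and 68, 105, 102 and 2054 in vehicle males. The groups overlapped, the log2 fold change was -0.34 (SE 1.22, adjusted p = 0.96 in edgeR), and without vehicle male replicate 4 it was 2.15. Per Krt14 read, Dmkn had 55, 0.423, 10.7 and 128.2 reads in PTX males, 0.114 to 2.49 in vehicle females and 0.021 to 0.0812 in vehicle males. The PTX ratios rest on 7, 390, 6 and 4 Krt14 reads. In vehicle males Krt14 had 1100 to 25295 reads, so a gene that did not fall with it rises per Krt14 read. The PTX keratinocyte libraries, for comparison, had 0.0634 to 0.178 Dmkn reads per Krt14 read. The difference between Dmkn and Krtdap in the PTX immune libraries was not tested.

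For each of the 9 genes detected in keratinocytes, the vehicle keratinocytes of both sexes had the highest mean levels of the 9 groups and overlapped each other. Krtdap averaged 212 ± 132 CPM in PTX keratinocytes, 1506 ± 641 CPM in vehicle female and 1461 ± 131 CPM in vehicle male keratinocytes (SD, n = 4, 4 and 3). The PTX keratinocytes overlapped the fibroblasts of PTX males, the next group at 50.1 ± 36.3 CPM. Dmkn averaged 267 ± 76.3 CPM in PTX keratinocytes, apart from the next group, the immune cells of vehicle males at 28.6 ± 47.5 CPM. For Sbsn every group in the order overlapped the next, with 65.6 ± 47.2 CPM in PTX keratinocytes and 36.6 ± 17.5 CPM in fibroblasts of PTX males. Capns2 was the 1 gene whose PTX keratinocytes, at 5.56 ± 8.32 CPM, did not follow the vehicle keratinocytes in the order. Immune cells of vehicle males stood before them at 6.45 ± 11.6 CPM, and the groups overlapped. Them5 and Fam25c in PTX keratinocytes, at 61.2 ± 25.7 and 71.9 ± 30.8 CPM, were apart from the next group, the immune cells of vehicle males, at 7.95 ± 14.6 and 4.81 ± 7.71 CPM.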

How the data were processed

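Per the labels' protocols, polyadenylated RNA was made into stranded TruSeq libraries and read from 1 end over 50 bases. The authors deposited 1 table of raw counts by gene symbol for each library. bcl2fastq, TopHat2, HTSeq and the build mm9 are named in the submitters' processing notes, while no source used here gives their versions, the gene annotation or whether counting used strand. Library sizes and tests ignore the reads that HTSeq put in no gene: 19.3 to 52.3% of reads per library were counted in genes and 34.9 to 60.9% had no unique place, which can empty genes with near-identical copies. All 51 pairs of libraries within groups differed by more than counting noise. Gene coordinates are not given, since the reference was GRCm38 and not mm9. Promoters carry their own build.

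Groups came from the labels. Each sort was fitted apart over its 3 groups with edgeR 4.0.16 under R 4.3.3: filterByExpr, TMM, robust glmQLFit, two-sided quasi-likelihood F-test, Benjamini-Hochberg adjustment over all genes, threshold 0.05. SE is the log2 fold change over the root of F. CPM values were scaled with TMM over all 35 libraries. Ratios to Krt14 used counts + 0.5, per library, with SE from the group SDs. Counting error is all that intervals and floors include. The members and lists were chosen with earlier results of these data known. All 10 genes and Krt14 are named; of every other list, up to 4 members that pass with the lowest p, or else the 2 with the highest mean CPM, could be named. The 5 genes of closest pattern had a mean of at least 5 CPM, clone-like symbols passed over. Krt79 and Krt2 in the plots and in the pairs were chosen after their values were seen. The fit was tested on simulated data.

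Alternatives were DESeq2 1.42.0, limma 3.58.1 with voom quality weights, RLE scaling, leaving out the low-count filter, a fit of the 2 groups alone, a block for the replicate number, both vehicle groups as controls, leaving out each library, and for ratios Krt5, the sum of Krt5, Krt14 and Krt15, a pseudocount of 5, vehicle females and edgeR's fold. Krt10 as yardstick, and list counts, count ratios and floor bounds without single libraries, were added after seeing the data. 1 of the transcription factors that passed is not reported here by name.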

Additional observations from a re-analysis of the deposited data

Results flagged for a closer look

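Of 66 groups of 4 libraries checked for a library far from the others of its group, 19 had one. For values spread as a normal curve chance gives about 1 in 20 groups, a rate that does not apply to counts near 0: in 10 of the 19 groups the other 3 libraries had no count at all, which always sets the remaining library apart. In the keratinocyte sort PTX replicate 4 was low for Defb6 (0.674 CPM) and PTX replicate 1 was low for Aqp3 (48.7 CPM).

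In the immune sort vehicle male replicate 4 was high for Dmkn (99.8 CPM) and Defb6 (7.29 CPM). PTX libraries stood apart as the 1 library with a count of Krtdap (replicate 4, 0.0937 CPM), as high for Fam25c (replicate 3, 4.68 CPM) and as high for Krt14 (replicate 2, 28.2 CPM). Vehicle females stood apart as high for Capns2 (replicate 2, 0.701 CPM), Them5 (replicate 4, 5.32 CPM) and Fam25c (replicate 1, 1.39 CPM).

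In the fibroblast sort PTX replicate 1 was high for Dmkn (25.9 CPM) and Capns2 (10.7 CPM), and PTX replicate 4 had the 1 count of Defb6 in its group (0.0825 CPM). Vehicle female replicate 3 was high for Sbsn (41.6 CPM). Vehicle males stood apart as high for Lor (replicate 2, 9.57 CPM), Cst6 (replicate 2, 5.25 CPM), Capns2 (replicate 3, 0.647 CPM), Them5 (replicate 1, 0.09 CPM) and Aqp3 (replicate 4, 0.0794 CPM), the last 2 with 1 count each.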

How the results depend on the processing

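The count of genes called for PTX in keratinocytes (159) was 1733 with DESeq2, 339 with limma and voom weights, 586 with both vehicle groups as controls and 84 to 148 without 1 library (84 without vehicle male replicate 3, and 87, 100 and 94 without PTX replicates 2, 3 and 4). That for the sexes (1) was 3 without a filter, 716 with DESeq2, 3 with limma and 1 to 3 without 1 library. That for PTX in immune cells (669) was 407 without a filter, 2258 with DESeq2, 38 with limma and 230 to 954 without 1 library (230, 232 and 279 without vehicle male replicates 2, 3 and 4). That in fibroblasts (2) was 1 with RLE scaling, 4 without a filter, 1 with only the 2 groups, 649 with DESeq2, 0 with limma and 0 to 4 without 1 library. Same-numbered libraries did not deviate together (14 pairs, r from -0.0613 to 0.0473), so numbers are only shared. With the number as a block the counts were 119, 1, 148 and 3, and of the tested samples 1 of 3, 0 of 3, 2 of 4 and 0 of 4 correlated best with their own number.

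The median ratio of the 9 genes to Krt14 (-0.84) was 0.6716 against Krt10, and -0.7431 to -1.009 without 1 library. Krt10 in place of Krt14 adds 1.51 to each gene, by construction, and so reversed Krtdap to 0.6716, Them5 to 0.4766, Fam25c to 0.6966 and Aqp3 to 0.7968. Krt5 reversed Sbsn to -0.1254 and Dmkn to -0.2264. Vehicle females reversed Dmkn to -0.01155 and Them5 to 0.4908, and Sbsn ran from -0.2873 to 0.9581 without 1 library.

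Between the sexes the signs of small differences turned. Krtdap became -0.05191 with RLE scaling, -0.05181 without a filter, -0.1436 with the replicate block and -0.06011 with DESeq2, and Defb6 0.2003 and Krt14 0.01596 with limma. Without 1 library the differences ran from -0.2327 to 0.2329 for Krtdap, -0.2025 to 0.3068 for Fam25c, -0.303 to 0.07424 for Krt14, -0.4899 to 0.1458 for Aqp3, -2.288 to 0.05782 for Capns2 and -1.738 to 0.3052 for Defb6. In immune cells Dmkn turned to 0.4673 with the block, 0.5312 with limma and 0.4147 with both vehicle groups, and ran from -1.029 to 2.147 without 1 library, as Fam25c did from -7.179 to 0.09934. The cause was not tested. The PTX differences of the 9 genes in keratinocytes kept their sign under every alternative run. The choice of genes used this comparison and the alternatives refit the same libraries, so nothing is read from that. Depth limits Capns2, Cst6 and Defb6 in PTX keratinocytes, where single libraries had 3 to 8 reads.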
